A study of Mus musculus with 2 samples.

Results

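The genes described here are 8 guidance genes with known roles in cardiac septation: the secreted ligands Sema3c, Sema3d, Slit2 and Slit3 and the receptors Plxnd1, Plxna2, Robo1 and Robo2. They were taken by gene symbol, and all 8 were found among the 18193 genes named by single-gene probe sets, through 17 probe sets. Expression was read in cells sorted from mouse hearts at embryonic day 12.5, with 1 Affymetrix array of mutant cells and 1 array of control cells. The mutant genotype was Tie2Cre;Tbx20 loxP/-, with a floxed and a null allele of the T-box factor gene Tbx20, and the control genotype was Tie2Cre;Tbx20 +/loxP, with a floxed and a working allele. Both genotypes carry Tie2Cre, a Cre transgene active in endothelium and its descendants, which include endocardium and endocardial cushion mesenchyme, and also in blood. The sorted cells were live, belonged to the Tie2Cre lineage and lacked the blood markers CD41, CD45 and Ter119. Cells in which Cre has acted keep no working Tbx20 allele in the mutant and 1 in the control, while the null allele is also present in mutant cells outside the lineage. The labels give no account of whether embryos were pooled. With 1 array per genotype no value has a replicate, no test between genotypes was possible, and the genotype cannot be told apart from any other difference between the preparations.

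Class 3 semaphorins are secreted proteins that steer migrating cells and growing vessels through plexins, most of them with neuropilins as co-receptors. In the embryonic heart they are known for guiding cardiac neural crest and endothelial cells while the outflow tract is divided and the great vessels and pulmonary veins are connected. Slit proteins are secreted ligands of Robo receptors, and mice lacking Slit or Robo genes have defects of the cardiac septa, valves, pericardium and caval veins.

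The promoters of both semaphorin ligand genes are shown because T-box factors bind a half-site with the letters AGGTGT, and these paralogous genes differ in whether their window holds it. RefSeq promoter windows (build GRCm38.p6) run from 250 bases before to 50 after an annotated start, and 10 windows were found for the 8 genes, Robo2 having several starts. The half-site was searched on both strands. It was found in 1 of the 10 windows, that of Sema3d, where its first base lies 211 bases before the start in the other orientation (ACACCT), and in 13.7% of all 32851 windows. The windows are printed below up to the first annotated base of the gene, on the plus strand, with the half-site in capitals. A match describes letters only and is no evidence of binding.
Sema3d, chr5:12382916-12383160: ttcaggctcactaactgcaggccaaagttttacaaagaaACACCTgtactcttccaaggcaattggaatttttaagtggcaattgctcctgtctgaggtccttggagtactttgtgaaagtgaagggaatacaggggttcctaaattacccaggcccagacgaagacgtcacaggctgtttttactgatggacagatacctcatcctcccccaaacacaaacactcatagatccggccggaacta
Sema3c, chr5:17574566-17574815: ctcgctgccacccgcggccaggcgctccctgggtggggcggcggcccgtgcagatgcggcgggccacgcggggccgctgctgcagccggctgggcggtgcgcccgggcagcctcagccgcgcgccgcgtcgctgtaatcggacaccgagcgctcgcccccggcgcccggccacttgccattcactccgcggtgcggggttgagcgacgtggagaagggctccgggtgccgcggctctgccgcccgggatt

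Signals are MAS5 intensities on a linear scale. A probe set was called measured where its signal lay above a floor, the median of the array's probe sets, on both arrays: 82.4 in the mutant and 91.3 in the control. The log2 ratio is mutant over control, and a gene is represented by its brightest probe set, by mean log2 signal over both arrays. Tbx20 itself read 6416, 5262 and 4245 in the mutant and 7638, 6128 and 7050 in the control on its 3 probe sets, and since the deleted exons are not named in the labels, these signals may not check the deletion. The only measure of error was the SD of log2 ratios between probe sets of the same gene, which covers probes and not embryos. It was 0.46 for genes with a mean signal under 200, 0.38 from 200 to 1000 and 0.29 above. The median absolute log2 ratio of all genes in these classes was 0.32, 0.25 and 0.18.

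Of the 8 guidance genes, 6 were measured on both arrays, and 0 of these 6 were 2-fold lower or higher in the mutant. Over all 10665 measured genes, 1.46% were at least 2-fold lower and 0.647% at least 2-fold higher, so a count of 0 among 6 does not set the guidance genes apart. The log2 ratio was above 0 in 3 genes (Sema3d, Slit2 and Plxnd1) and below 0 in 3 (Robo1, Plxna2 and Sema3c). Their median was 0.08, against -0.01 over all measured genes. Of the 17 probe sets, 9 were measured on both arrays, 2 lay above the floor in the mutant only, 1 in the control only and 5 on neither. The measured probe sets ranged in log2 ratio between -0.33, for Robo1, and 0.62, for Sema3d.

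**Figure D1:**
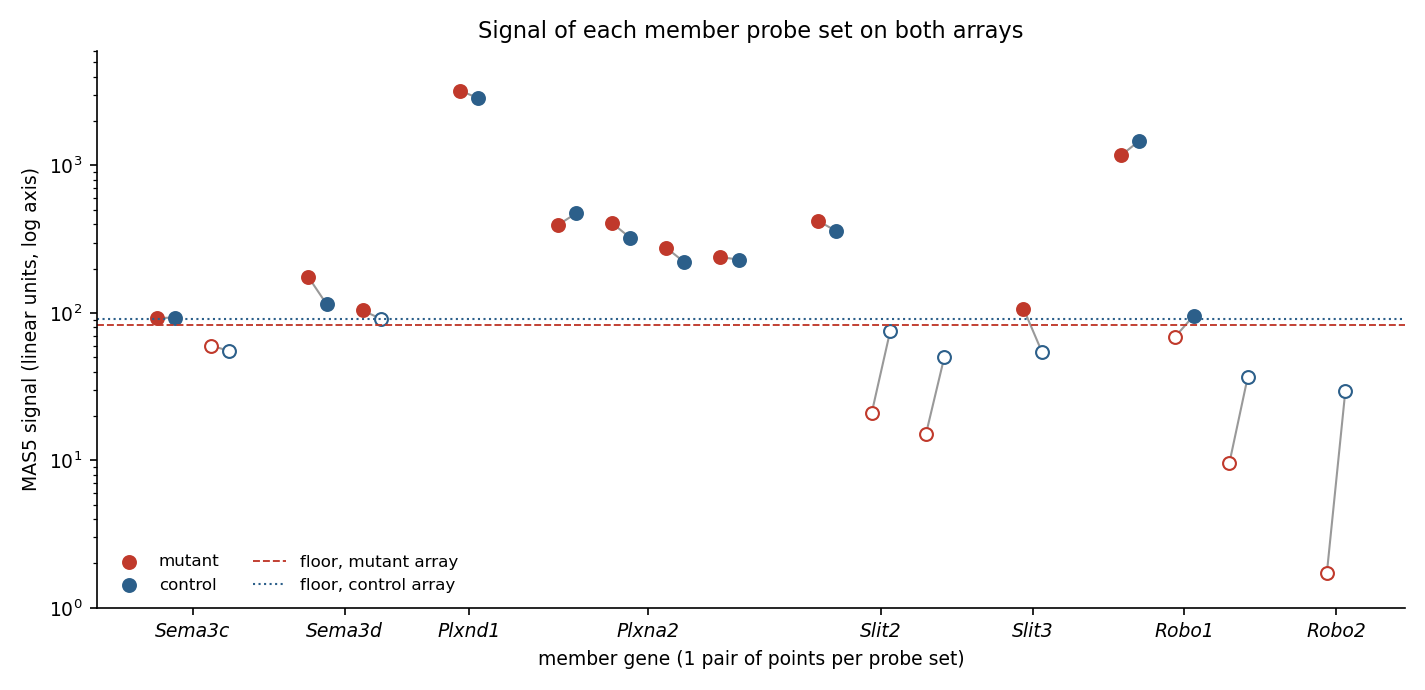
MAS5 signal (log axis) of all 17 probe sets of the 8 guidance genes, mutant in red at the left and control in blue at the right of each pair, with dashed and dotted lines at the floors of 82.4 and 91.3. Filled points lie above their array's floor and open points at or below it, and the steepest lines join open points.

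Among the ligands, Sema3d, which patterns endothelium and the pulmonary veins, gave the widest measured ratio. It read 175 in the mutant and 114 in the control, 1.53-fold higher (log2 ratio 0.62). The second Sema3d probe set read 104 in the mutant and 91.2 in the control, where it was just under the floor, so it was at least 1.14-fold higher. Both probe sets were higher in the mutant and both were close to the floor. The ratio of the first exceeded the SD of 0.46 between probe sets of genes this dim, an SD that does not cover embryos. Over the alternatives in which that ratio had a value, it ran between 0.33, inside this SD, and 0.73. Sema3d was the 1 measured member past 1.5-fold, a size reached by 4.37% of all measured genes in the higher direction. That share covers genes of every brightness, and wide ratios were commoner among dim genes. In either direction, 4.98% of measured genes with a mean signal under 200 were at least 2-fold different, against 0.80% of those over 1000.

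Sema3d is also made by epicardium, an outer layer of the heart that the sort does not target, and epicardial markers were higher on the same array. Of 9 markers, 7 were measured, and all 7 were higher, with a median log2 ratio of 0.62 and a summed signal over the 9 of 8608 in the mutant and 4930 in the control. Upk3b, a uroplakin of mesothelium, read 2961 in the mutant and 1163 in the control, and the epicardial factor gene Tcf21 read 3367 in the mutant and 2432 in the control. The epicardial and mesothelial genes Lrrn4 and Krt19 were at 1.22 and 0.37, the brightest Upk1b probe set was above the floor in the mutant only, its 2 measured ones being at 0.18 and 0.64, and Msln was under the floor on both arrays. The part of these markers in the Sema3d ratio was not tested. In sorted bulk cells, more cells of a type and more RNA per cell cannot be told apart.

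Sema3c, a ligand needed for division of the outflow tract, was at the edge of detection. Its brighter probe set read 92.5 in the mutant and 92.8 in the control (log2 ratio 0.00), and the other read 60.1 in the mutant and 55.2 in the control, under both floors. The 2 arrays thus gave nearly the same signal for Sema3c at a level where the floor itself lies. After quantile normalization or loess, which correct for brightness, its log2 ratio was 0.14 and 0.16.

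Slit2, a Robo ligand, read 423 in the mutant and 360 in the control on its single measured probe set, a log2 ratio of 0.23, which was within the SD of 0.38 between probe sets of that brightness. Its other 2 probe sets read 21.1 and 15.1 in the mutant and 75.4 and 50.4 in the control, under the floor on both arrays, and give no direction. Slit3, a Robo ligand whose loss in mice affects the atrioventricular valves and septum, read 107 in the mutant and 54.5 in the control on its only probe set. The control signal was under the floor, so the bound for Slit3 was at least 1.17-fold higher in mutant cells. The signals as deposited stood at a log2 ratio of 0.97. That value rests on 1 dim probe set.

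Of the receptors, Plxnd1, the plexin of endothelial cells that outflow tract division needs, was well above the floor on both arrays. It read 3214 in the mutant and 2862 in the control on its only probe set (log2 ratio 0.17), within the SD of 0.29 for bright genes and close to their median absolute ratio of 0.18. All 8 pan-endothelial markers were measured, with a median log2 ratio of 0.10 and a range between -0.01 and 0.16. Their summed signal was 57205 in the mutant and 54174 in the control. Among them were Emcn at 0.11, Eng at 0.13 (-0.36 on its second probe set), Cdh5 at 0.01 and Tek at -0.01. The part of these markers in the Plxnd1 ratio was not tested. Of the 7 endocardial markers, all measured, 4 were higher and 3 lower, with a median of 0.08. That median was -0.23 where each gene took the median of its probe sets. Hapln1, Plvap, Npr3 and Tmem100 were at 0.08, 0.16, 0.25 and 0.19, although the 4 probe sets of Hapln1 reached down to -0.30. Nfatc1, a factor of endocardium, read 1718 in the mutant and 2162 in the control (-0.33), and its 5 measured probe sets ran between -1.58 and 0.16. Cytl1 and Nrg1 were also lower, at -0.85 and -0.23. Every marker of these endothelial and endocardial lists lay above the floor on both arrays.

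Plxna2, a plexin found on cardiac neural crest cells, was the 1 member with several measured probe sets, and they disagreed in sign. The brightest read 393 in the mutant and 473 in the control (-0.27), and the others read 409, 278 and 239 in the mutant and 323, 221 and 230 in the control (0.34, 0.33 and 0.06). The mean log2 ratio was 0.11 (SD 0.29, n = 4 probe sets), so no direction can be given for Plxna2. Of the neural crest and glial list, 4 of 7 genes had a single-gene probe set and 2 were measured, the endothelin receptor gene Ednrb, which endothelial cells can also express, at 0.84 (0.41 and 0.29 on its other 2 probe sets) and Erbb3 at -0.30. Sox10, a defining factor of the crest, was under the floor in the mutant and read 137 in the control, and Foxd3 was under the floor on both arrays. The summed signal of the 4 genes was 10551 in the mutant and 6587 in the control, most of it from the Ednrb probe set with the highest ratio.

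Robo1, a Slit receptor whose loss in mice leaves ventricular septal defects, was the lowest of the measured members. Its brightest probe set read 1171 in the mutant and 1471 in the control, 1.26-fold lower (log2 ratio -0.33), against an SD of 0.29 between probe sets of bright genes. A second Robo1 probe set read 69.0 in the mutant and 95.7 in the control, at least 1.16-fold lower. The third read 9.60 in the mutant and 36.9 in the control, under both floors, and gives no direction. Markers of cushion mesenchyme were lower on the same array: all 8 were measured and all 8 were lower, with a median of -0.73 and a summed signal of 23662 in the mutant and 38346 in the control. Among them the matrix genes Vcan and Postn were at -0.50 and -0.73 and the factor genes Snai2 and Twist1 at -0.89 and -0.52. The list ran between -2.02, for Lum, its 1 marker past 2-fold, and -0.07, for Sox9. The part of these markers in the Robo1 ratio was not tested.

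Robo2, the other Slit receptor of the set, has 1 probe set, which read 1.73 in the mutant and 29.5 in the control, under the floor on both arrays, so no fold is given. It was 1 of 5 member probe sets under both floors, of which 4 read more than 3-fold lower in the mutant as deposited (both of Slit2, 1 of Robo1 and that of Robo2). Over the 13621 single-gene probe sets under both floors, 17.3% read at least 3-fold lower and 14.2% at least 3-fold higher, and the SD of their log2 ratios was 1.73. No direction was therefore read from probe sets under both floors.

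**Figure D2:**
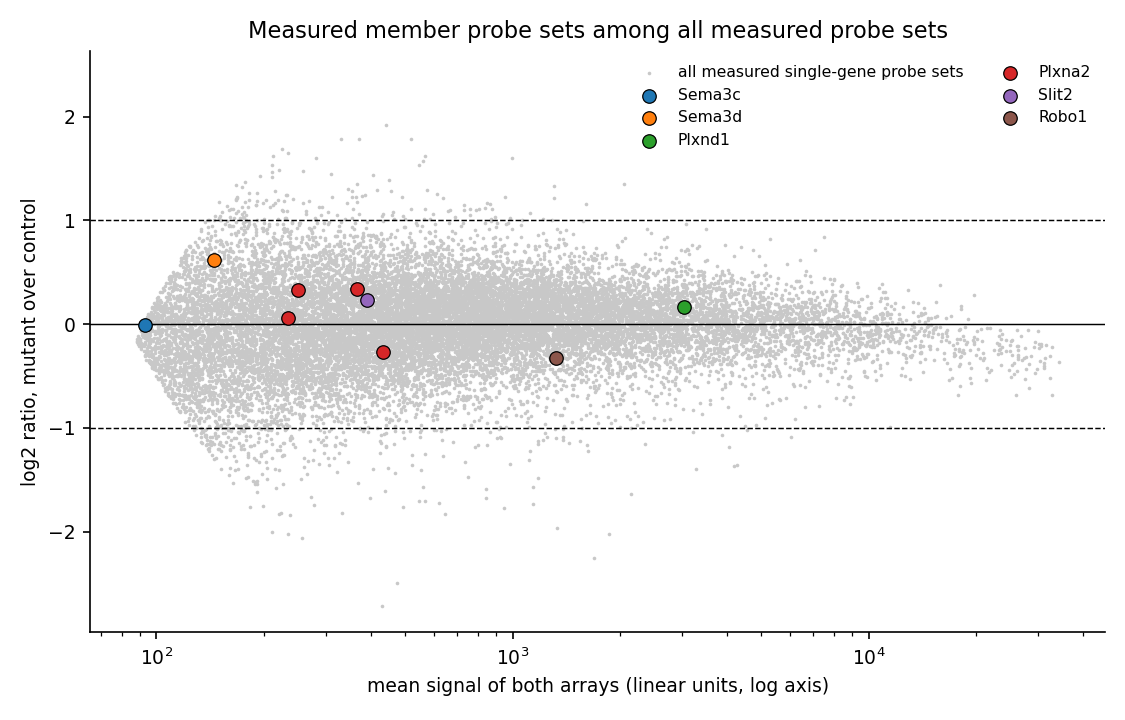
Log2 ratio of mutant over control against the mean signal of both arrays (log axis) for all measured single-gene probe sets (grey) and the 9 measured probe sets of the guidance genes (coloured by gene), with dashed lines at 2-fold. The coloured points lie between -0.33 and 0.62, inside the grey cloud at their brightness.

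None of the other guidance genes measured on both arrays passed 2-fold in its brightest probe set. Of 58 further ligands, receptors and effectors, 47 were measured, 22 of them higher and 25 lower in the mutant. At least 2-fold different were 0 of the 47, against 2.11% of all measured genes in either direction. With a share that small, a count of 0 does not set the other guidance genes apart. Their log2 ratios had a median of -0.16, against -0.01 over all measured genes, and ran between -0.72, for Robo4, and 0.83, for Plxnc1. That median rests on the brightest probe sets, and the medians of several of the lists it pools shifted with the median over probe sets, as given below. Dimmer measured probe sets passed 2-fold in 3 genes, Sema5a (-1.17), Sema4b (1.10) and Srgap2 (1.11), named here after their values were seen. Of the genes not measured, 3 were above the floor on 1 array and 8 on neither.

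Secreted semaphorins other than the members split evenly, 2 of 4 measured genes being higher and 2 lower (median -0.06), but 1 was higher and 3 were lower where each gene took the median of its probe sets (-0.14). Sema3a, a neuropilin ligand and repellent, was at 0.54, and its 3 probe sets all lay between 0.43 and 0.63. Sema3g, a semaphorin of endothelium, was at -0.44, and Sema3f at -0.23, with a second probe set above the floor in the control only and at least 2.09-fold lower. The 2 measured probe sets of Sema3b were at 0.11 and -0.21. Sema3e, the ligand that binds Plxnd1 without a neuropilin, was under the floor on both arrays. Membrane semaphorins had 5 of 9 measured genes higher and 4 lower (median 0.02), but 3 higher and 6 lower by the median of a gene's probe sets (-0.42). Among them were Sema5b at 0.51, Sema4d, a ligand of B plexins, at 0.50, Sema4c at -0.51 and Sema4g at -0.69.

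Among the plexins and neuropilins outside the set, 3 of 8 measured genes were higher and 5 lower (median -0.31, but -0.01 where each gene took the median of its probe sets). Nrp1, the co-receptor of class 3 semaphorins and of VEGF, read 4281 in the mutant and 3902 in the control (0.13), and its 3 measured probe sets were all higher, by up to 0.32. The brightest probe set of Nrp2 was at -0.43 and the highest at 0.24, so no direction can be given. Plxnc1, the receptor of Sema7a, was at 0.83, but its 5 measured probe sets reached down to -0.13. Plxnb1 and Plxna4 were at -0.63 and -0.56, with second measured probe sets at -0.04 and -0.03, and Plxnb2 was at -0.45. Robo4, the Robo of endothelial cells, read 386 in the mutant and 636 in the control (-0.72) on its only probe set, past the 1.5-fold size that 6.61% of measured genes reached in the lower direction.

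Intracellular effectors were mixed. Of 14 measured genes downstream of plexins, 7 were higher and 7 lower (median -0.06). They included Arhgap35, a GTPase-activating protein, at 0.75, the oxidoreductases Mical2 at 0.44 and Mical1 at -0.59, and Crmp1, a collapsin response mediator, at 0.46. Both Mical1 probe sets were lower, the other at -0.68. Of 11 measured genes downstream of Robo receptors, 5 were higher and 6 lower (median -0.17, but 0.02 where each gene took the median of its probe sets). The actin regulator gene Enah was at -0.52, but its 6 measured probe sets ran between -0.86 and 0.45. Arhgap39 was at -0.40, with a second measured probe set at -0.10, and Usp33, a deubiquitinase that acts on Robo1 in human cells, was at -0.35. The Slit-Robo GTPase-activating protein gene Srgap2 was at -0.36 on its brightest probe set, while its 4 measured probe sets ran between -0.53 and 1.11.

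**Figure D3:**
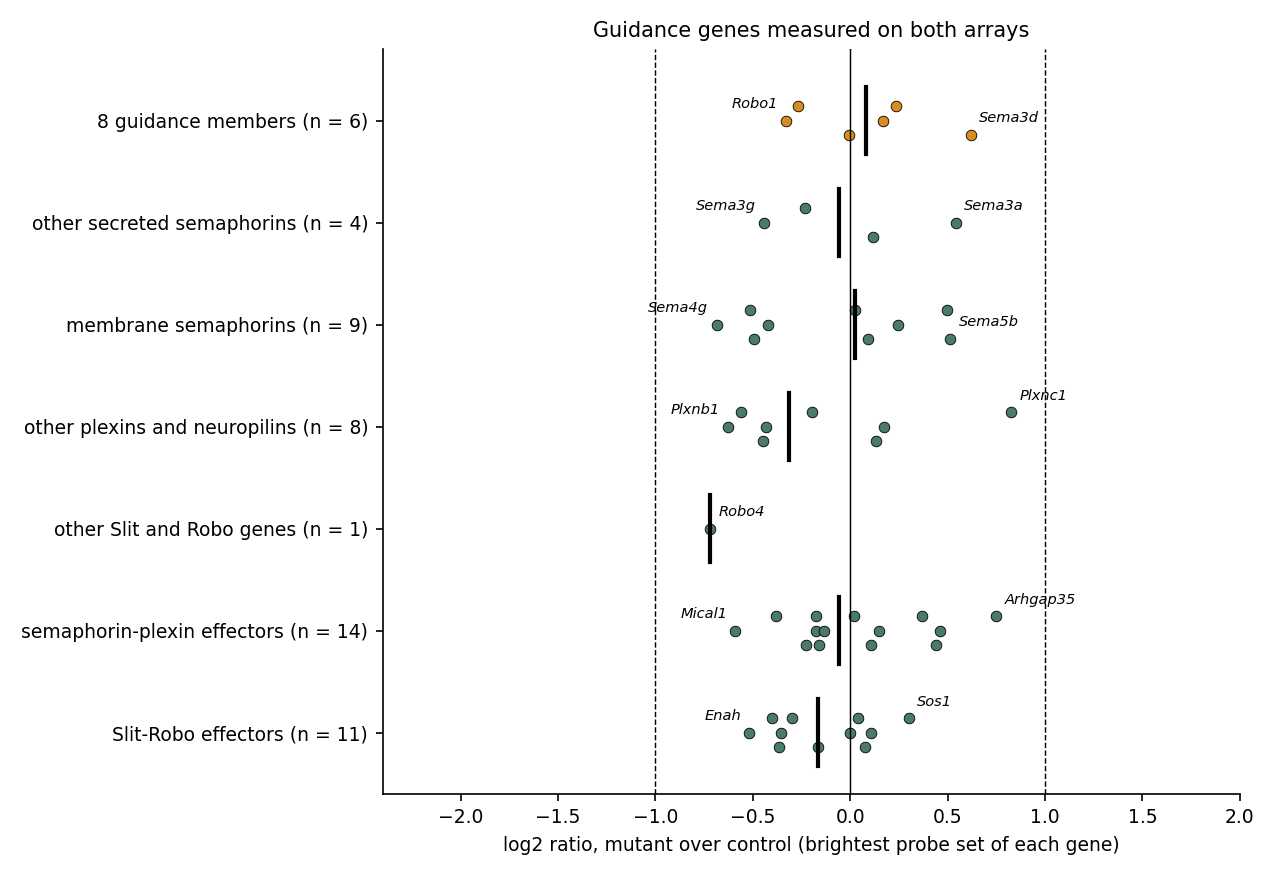
Log2 ratio of mutant over control for each measured gene of the 8 guidance members (orange) and of 6 lists of other guidance genes (green), with the list median as a black bar, dashed lines at 2-fold and the outermost genes named. No point passes 2-fold, and the points of most lists lie on both sides of 0.

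The remaining marker lists describe what else the sorted RNA held, since myocardium, smooth muscle and blood cells also make guidance genes. Of 10 myocardial genes, 8 were measured, 5 of them higher (median 0.20), with a summed signal of 25268 in the mutant and 22372 in the control. Myl7 read 6753 in the mutant and 3811 in the control, while Tnni1 was at -0.36. Smooth muscle genes had 5 of 6 measured and a median of 0.01 (-0.00 after median scaling), with a summed signal of 6969 in the mutant and 7284 in the control, and the defining gene Myh11 was under the floor on both arrays. Of 6 erythroid genes with a probe set, 3 were measured and all 3 were lower (median -0.97). The summed signal of the erythroid list was 7378 in the mutant and 11346 in the control. With a pseudocount of each array's median in place of the floor, the erythroid median was -0.53, with 1 gene higher and 5 lower. The myocardial median was then -0.04, with 5 genes higher and 5 lower. Of 7 leukocyte genes, 1 was measured (Cd68 at 0.79). Above the floor in the control only were Cx3cr1, at least 2.74-fold lower, and Csf1r, at least 1.74-fold lower. The list had a summed signal of 404 in the mutant and 535 in the control, and Ptprc, which encodes CD45, was under the floor on both arrays. The part of these cells in any member's signal was not tested.

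**Figure D4:**
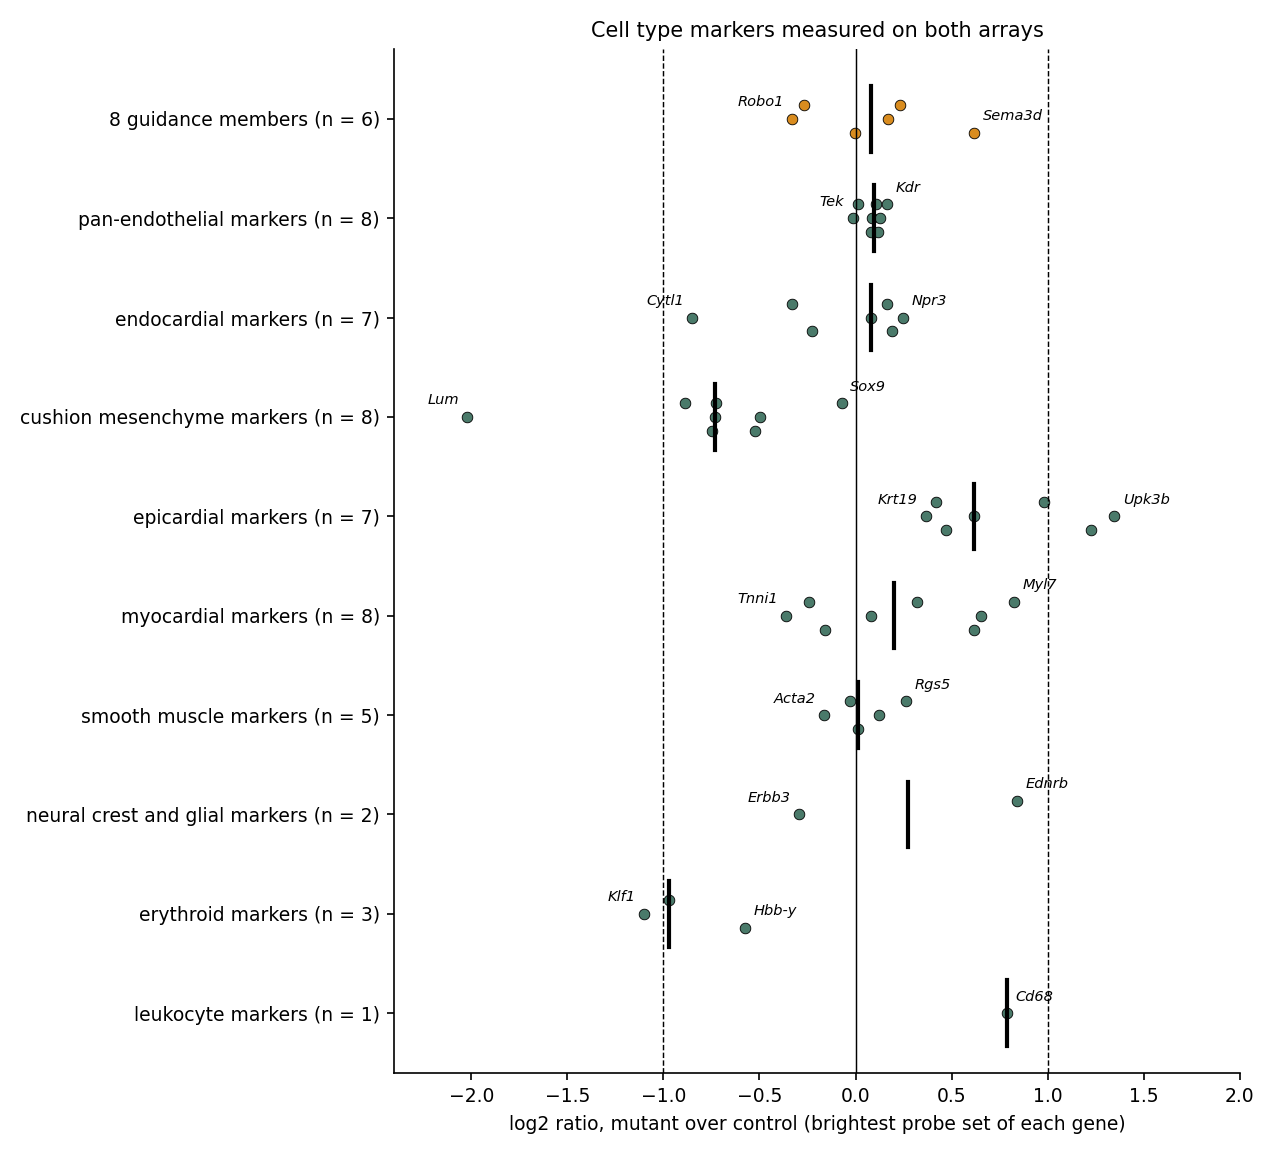
Log2 ratio of mutant over control for each measured gene of the 8 guidance members (orange) and of 9 cell type marker lists (green), with list medians as black bars and dashed lines at 2-fold. All 7 measured epicardial markers lie above 0 and all 8 cushion mesenchyme markers below it, while the guidance genes lie on both sides.

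The ratios of Robo1, Plxnd1 and Slit2 moved by less than those of the other members under the alternatives tried. Each of these genes has 1 measured probe set, so the rules on probe sets could not move its ratio. Neither could a floor below its signals. The log2 ratio of Sema3d was between 0.33, with a pseudocount, and 0.73, after quantile normalization. Plxna2 was at 0.19 with the median over its probe sets, against -0.27 for the brightest one, and Sema3c changed sign, between -0.07 with a pseudocount and 0.16 after loess. Robo1 stayed between -0.37 and -0.32, Plxnd1 between 0.14 and 0.17 and Slit2 between 0.16 and 0.25 over the alternatives in which each had a value.

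**Figure D5:**
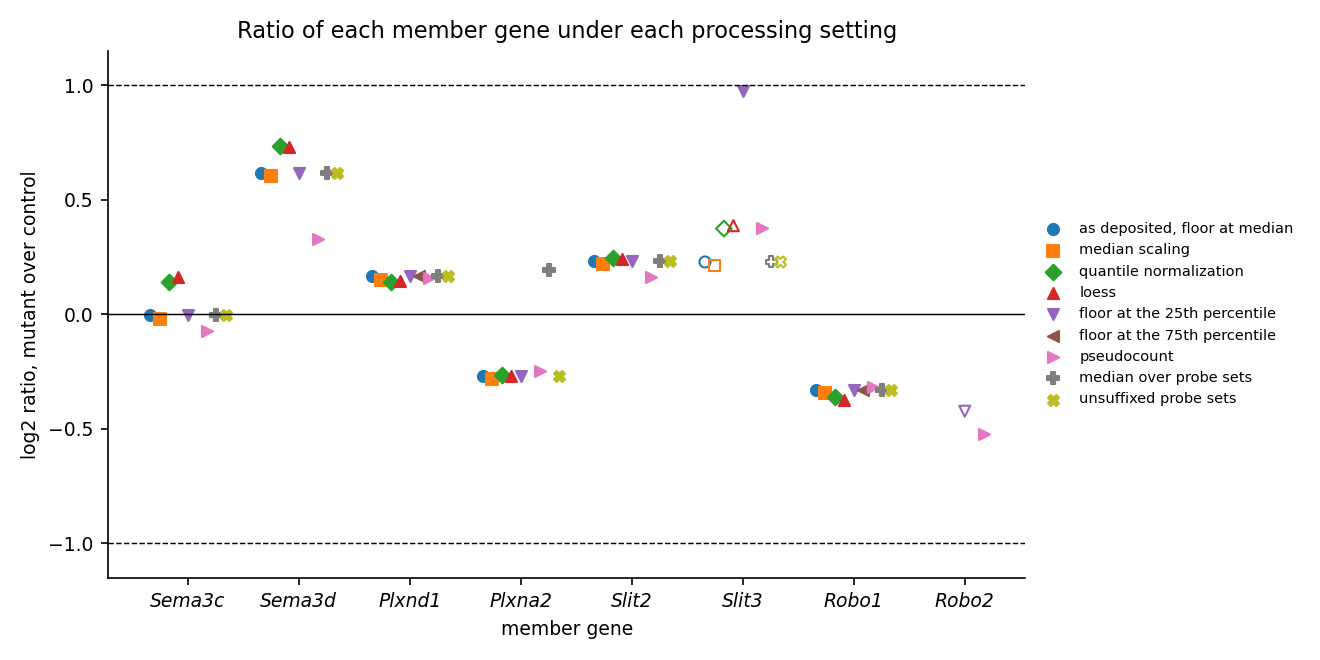
Log2 ratio of mutant over control of each guidance gene under 9 processing settings (symbols), with dashed lines at 2-fold. Open symbols are bounds taken against the floor of 1 array, and Slit3 reaches 0.97 only where the floor is lowered to the 25th percentile.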

How the data were processed

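Cells of the Tie2Cre lineage were sorted, and their RNA was labelled with biotin and hybridised to 1-colour arrays, per the labels' protocols. Each deposited value is the intensity of a probe set, made by the authors with MAS5, per the submitters' processing notes. Its version, its settings and a genome build are not given. With 2% of probe sets trimmed at each end, both arrays had a mean of 500. MAS5 subtracts mismatch signal, which makes ratios of dim probe sets noisy. The table used here holds signals and no detection calls.

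Signals were used as deposited. Of 45101 probe sets, 64 were array controls, 34945 named 1 gene in the platform annotation, 932 several and 9160 none, and only those naming 1 gene were used. The floor was the 50th percentile of each array, and that of the mutant lay at -0.15 (log2) relative to the control's, which is part of each bound. With 1 array per genotype, genes were counted past 2-fold and no test was made. Precision is limited by the number of arrays.

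The members and lists were chosen with earlier results of these data known. All members are named, with up to 4 genes of each other guidance list by absolute log2 ratio, and Nrp1, Nrp2 and Robo4. From each marker list, up to 4 measured genes were taken by the highest mutant signal, which favours genes higher in the mutant. Sema3e, Nfatc1, Cx3cr1, Csf1r, Sox10, Foxd3, Upk1b, Msln, Myh11 and Ptprc were added for their known roles after their values were seen. Cytl1, Nrg1, Sox9 and Lum were added to show other values of their lists, also after these were seen. Alternatives were median scaling, quantile normalization, loess (span 0.3, statsmodels 0.14.6), other floors and folds, a pseudocount of each array's median, the median over probe sets, and unsuffixed probe sets. Steps were tested on simulated data in Python 3.11.15.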

Additional observations from a re-analysis of the deposited data

How the results depend on the processing

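The count of members at least 2-fold lower was 0 and of those at least 2-fold higher 0 under each scaling, floor and probe set rule tried, and at 3-fold, while 1 member (Sema3d) was higher at 1.5-fold. With a lower floor, at the 25th percentile, Slit3 was at 0.97, and Robo2, above the floor in the control only, had a bound of -0.42. With a pseudocount and no floor, Slit3 was at 0.38 and Robo2 at -0.52. These values come from signals that the main floor leaves out. With the median over its probe sets, Plxna2 was at 0.19 instead of -0.27, since its probe sets disagree. The member median lay between -0.08, with the floor at the 75th percentile and 2 members left, and 0.18. Using only unsuffixed probe sets could change no member's value, since no member has a suffixed probe set. The lists of other genes and the named genes outside the set were put through the same 8 alternatives, a choice made after seeing the data. No paired analysis was possible because each genotype has 1 array. Signal close to the floor limits Sema3c, Sema3d, Slit3 and Robo2.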
